A study of Mus musculus with 36 samples.

Results

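Hormone and regulator genes of the anterior pituitary were followed through 36 bulk RNA-seq libraries of mouse hypothalamus. The genes were taken by symbol from the deposited table of counts: 10 symbols were looked for, and 9 have a row there, of 24265 genes in all. The 9 are the hormone genes Prl, Gh, Cga, Lhb, Fshb and Tshb, the transcription factor genes Tbx19 and Pitx1, and the receptor gene Gnrhr. Pou1f1, which encodes the transcription factor of prolactin, growth hormone and thyrotropin cells, is not analysed here. All 9 passed the filter on low counts and were tested.

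The anterior pituitary hangs below the hypothalamus and makes the peptide hormones that act on the gonads, thyroid, adrenal gland, liver and mammary gland. Lactotropes make prolactin and somatotropes make growth hormone. Gonadotropes make luteinizing and follicle-stimulating hormone, and thyrotropes make thyrotropin. The last 3 hormones are pairs of subunits that share the alpha subunit encoded by Cga, while Lhb, Fshb and Tshb encode the beta subunits that set them apart. The pars tuberalis, a thin sheet of pituitary tissue that covers the median eminence on the underside of the hypothalamus, is known for cells that make Tshb and Cga with little Prl or Gh. Hypothalamic nerve cells are known mainly for the releasing factors that govern these hormones, and a small level of some pituitary hormone transcripts has been described in brain.

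The libraries come from 3 inbred strains with 12 libraries each: C57BL/6J, the strain of the reference genome, NZO/HlLtJ, known for obesity and diabetes, and CAST/EiJ, derived from wild mice. All animals are labelled wild type with no treatment besides diet. Within each strain, 3 females and 3 males had a control diet with 10% fat, and 3 females and 3 males had a high-fat, high-sugar (HFHS) diet with 44% fat, both with fiber, from 6 weeks of age until tissue was collected at 15 weeks. The labels do not say whether each library is 1 animal or how the hypothalamus was cut from the pituitary, and the numbers of libraries within a group only name them. P-values therefore measure the spread between these samples. The values are expected counts, scaled here to a common library size as CPM (counts per M counts), from library totals of 23.9 to 47.3 M counts. The hypothalamic neuropeptide genes Pmch, at 213 to 905 CPM, and Hcrt, at 20.8 to 235 CPM, were present in all 36 libraries. In bulk tissue, fewer cells of a type and less RNA per cell cannot be told apart.

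The sequences upstream of 5 hormone genes are shown because their transcripts differ so widely between these libraries. Each is the 250 bases before the transcription start given by RefSeq for build GRCm38.p6, read 5′ to 3′ on the strand of the gene. Capitals mark matches on either strand to 4 short motifs: TATAAA, the TATA box, ATGNATA, a core of the POU1F1 site, AAGGTCA, the SF-1 site of gonadotrope genes, and TAATCN, the PITX site. Where motifs overlap, the capitals run together.
Prl, chr13:27057320-27057569, plus strand: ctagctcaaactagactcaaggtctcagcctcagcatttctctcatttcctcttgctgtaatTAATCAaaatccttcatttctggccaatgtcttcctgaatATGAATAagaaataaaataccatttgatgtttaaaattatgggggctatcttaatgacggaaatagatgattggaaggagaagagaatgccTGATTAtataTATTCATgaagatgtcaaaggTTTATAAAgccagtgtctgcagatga
Cga, chr4:34893529-34893778, plus strand: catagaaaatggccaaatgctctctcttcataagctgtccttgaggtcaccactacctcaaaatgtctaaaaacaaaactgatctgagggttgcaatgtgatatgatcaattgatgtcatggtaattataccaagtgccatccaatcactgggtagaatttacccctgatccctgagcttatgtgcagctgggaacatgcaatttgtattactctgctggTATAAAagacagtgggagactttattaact
Lhb, chr7:45420696-45420945, plus strand: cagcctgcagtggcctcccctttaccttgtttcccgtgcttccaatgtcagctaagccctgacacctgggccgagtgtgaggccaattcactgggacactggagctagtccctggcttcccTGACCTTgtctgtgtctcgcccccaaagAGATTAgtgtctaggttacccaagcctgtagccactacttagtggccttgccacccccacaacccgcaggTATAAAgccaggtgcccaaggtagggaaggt
Fshb, chr2:107059652-107059901, minus strand: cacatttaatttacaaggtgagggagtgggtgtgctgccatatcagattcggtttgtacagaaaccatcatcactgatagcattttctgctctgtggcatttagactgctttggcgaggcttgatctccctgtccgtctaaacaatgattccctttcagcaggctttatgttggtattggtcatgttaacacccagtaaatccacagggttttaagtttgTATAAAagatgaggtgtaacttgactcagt
Tshb, chr3:102782715-102782964, minus strand: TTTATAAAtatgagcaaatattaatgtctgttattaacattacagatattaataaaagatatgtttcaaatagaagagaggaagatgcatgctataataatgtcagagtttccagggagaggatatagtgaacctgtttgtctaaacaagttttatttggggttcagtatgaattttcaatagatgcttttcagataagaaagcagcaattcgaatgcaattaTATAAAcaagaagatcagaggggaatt
Each of these windows holds a TATA box within 31 bases of the start. Of 32851 windows of this length before RefSeq starts, 12.4% hold TATAAA on either strand, against 7 of the 8 looked-for genes that have an entry. The Prl window holds ATGNATA on both strands, a motif of 7.92% of all windows. The Lhb window holds AAGGTCA on the minus strand, 123 to 129 bases before the start, as do 4.08% of all windows. TAATCN, found in 19.8% of all windows, is in the Prl and Lhb windows. Such a match is a description of the letters, not a binding site.

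Prl, on chromosome 13 at 27057570-27065204, encodes prolactin. In 1 library, the CAST/EiJ control female 1, it stood at 1331 CPM (43214 counts), and in the other 35 it did not exceed 28.7 CPM. Over the 12 C57BL/6J libraries the lowest, median and highest levels were 0, 0 and 7.06 CPM. They were 0, 0.346 and 4.77 CPM over the 12 NZO/HlLtJ libraries and 0, 1.05 and 1331 CPM over the 12 CAST/EiJ libraries. Prl exceeded 3 counts in 19 of the 36 libraries and reached 1 CPM in 10. It had no counts in 12 libraries, where a count of 0 allows up to 0.0694 to 0.127 CPM. Of all 45712 Prl counts, 98.5% lay in CAST/EiJ, and without CAST/EiJ control female 1 that share was 71.9% of 2498 counts. Such limits cover counting error only. The standard errors below are the size of each log2 change divided by the square root of its edgeR F statistic. That statistic takes in the spread between libraries. These errors restate the test result and are not reliable where a group has no counts.

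Gh, on chromosome 11 at 106300271-106301865, encodes growth hormone and followed a similar pattern. It was at 802 CPM (26037 counts) in CAST/EiJ control female 1 and at 116 CPM (3490 counts) in CAST/EiJ control male 1, and at 8.12 CPM or less elsewhere. The lowest, median and highest levels were 0, 0 and 2.44 CPM in C57BL/6J, 0, 0.396 and 1.16 CPM in NZO/HlLtJ and 0, 0.373 and 802 CPM in CAST/EiJ. Gh exceeded 3 counts in 17 libraries, of which 1 was C57BL/6J, 8 were NZO/HlLtJ and 8 were CAST/EiJ. It reached 1 CPM in 7 libraries and had no counts in 13. The ranges of the 3 strains overlapped for both hormones.

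Both transcripts tended to be present in the same libraries. Prl and Gh were both above 3 counts in 16 of the 36 libraries and both at 0 in 7. All 6 CAST/EiJ control libraries held both above 3 counts, against 1 of the 6 on HFHS. In C57BL/6J a single library held both, the HFHS male 3 with 7.06 CPM of Prl (174 counts) and 2.44 CPM of Gh (60 counts). In NZO/HlLtJ, 8 of 12 libraries held both. Counted over all 9 genes, 6 of 6 CAST/EiJ control libraries, 1 of 6 CAST/EiJ HFHS libraries, 3 of 12 NZO/HlLtJ libraries and 0 of 12 C57BL/6J libraries had every gene above 3 counts.

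**Figure D1:**
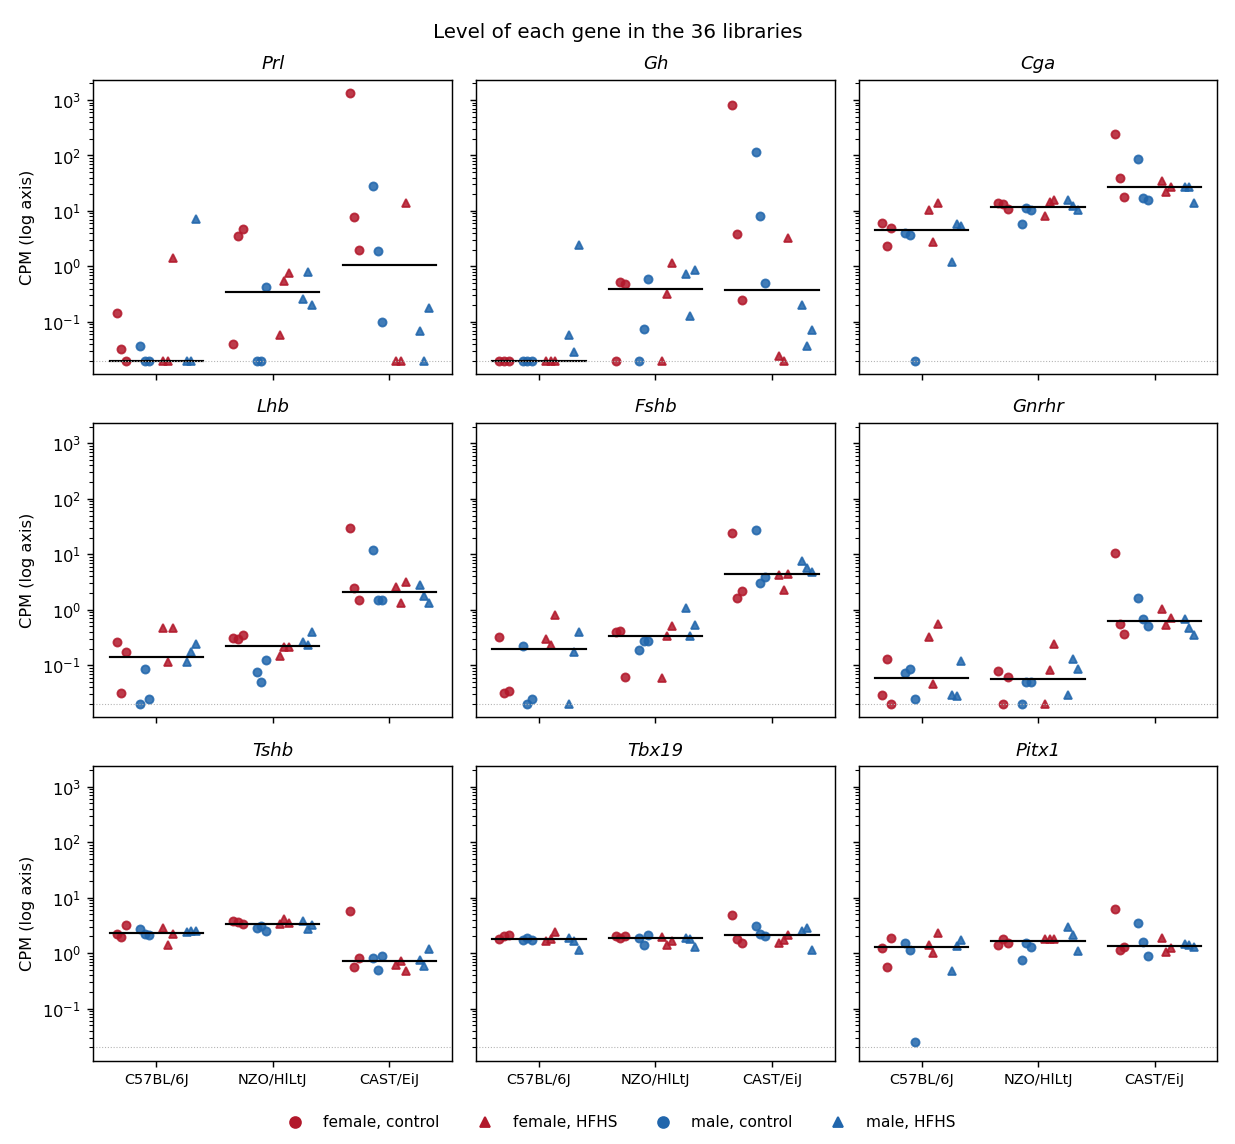
Level of each of the 9 genes in CPM (log axis) in every library, by strain. Each point is 1 library, black lines are medians, and libraries without counts are drawn on the dotted line at 0.02 CPM. Prl and Gh spread from 0 to 1331 and 802 CPM, Lhb and Fshb stand higher in all 12 CAST/EiJ libraries than in any other, and Tshb is lower in 11 of the 12 CAST/EiJ libraries than in any other.

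Cga, on chromosome 4 at 34893779-34907370, encodes the shared alpha subunit and had the highest median level per length of the 9 in each strain. It reached 1 CPM in 35 of 36 libraries. The lowest, median and highest levels were 0, 4.46 and 14.1 CPM in C57BL/6J, 5.79, 11.8 and 16.0 CPM in NZO/HlLtJ and 14.1, 26.9 and 242 CPM in CAST/EiJ. CAST/EiJ control female 1 at 242 CPM and male 1 at 85.3 CPM were again the highest, and the other 10 CAST/EiJ libraries lay at 14.1 to 39.5 CPM. CAST/EiJ did not overlap C57BL/6J and overlapped NZO/HlLtJ in a narrow range. The library without Cga counts was C57BL/6J control male 3, where a count of 0 allows up to 0.0753 CPM. That library also had 1 count of Pitx1 but 85 counts of Tshb. Of the exon bases of Cga, 32.0% are shared with Platr9 on the opposite strand, which averaged 0.128 CPM.

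Lhb, on chromosome 7 at 45420946-45421854, encodes the luteinizing hormone beta subunit, and was a CAST/EiJ transcript in these libraries. Its lowest, median and highest levels were 0, 0.144 and 0.475 CPM in C57BL/6J, 0.0502, 0.221 and 0.398 CPM in NZO/HlLtJ and 1.30, 2.09 and 29.5 CPM in CAST/EiJ. Every CAST/EiJ library was above every library of the other strains, and CAST/EiJ held 92.6% of the 2204 Lhb counts. Without CAST/EiJ control female 1 and male 1, which had 29.5 and 11.96 CPM, the other 10 lay at 1.30 to 3.15 CPM. Lhb shares 20.4% of its exon bases with Ruvbl2 on the opposite strand, and the sources used here do not say whether counting used strand. Ruvbl2 lay at 20.1 to 25.8 CPM in C57BL/6J and 21.3 to 37.9 CPM in CAST/EiJ, and its part in the Lhb values was not tested.

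Fshb, on chromosome 2 at 107056140-107059656, encodes the follicle-stimulating hormone beta subunit. Its lowest, median and highest levels were 0, 0.195 and 0.799 CPM in C57BL/6J, 0.0578, 0.333 and 1.10 CPM in NZO/HlLtJ and 1.66, 4.37 and 27.1 CPM in CAST/EiJ. As with Lhb, no CAST/EiJ library overlapped another strain. Here the control male 1 was the highest library at 27.1 CPM, with control female 1 at 23.8 CPM and the other 10 at 1.66 to 7.61 CPM. Fshb shares no exon bases with an annotated neighbour in GENCODE M21.

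Gnrhr, on chromosome 5 at 86180754-86197901, encodes the receptor by which gonadotropes sense gonadotropin-releasing hormone, and was the least abundant of the genes higher in CAST/EiJ. The lowest, median and highest levels were 0, 0.0597 and 0.545 CPM in C57BL/6J, 0, 0.0565 and 0.243 CPM in NZO/HlLtJ and 0.351, 0.619 and 10.5 CPM in CAST/EiJ. It exceeded 3 counts in 12 of 12 CAST/EiJ libraries and in 3 of 12 of each other strain. CAST/EiJ did not overlap NZO/HlLtJ, and 1 C57BL/6J library, the HFHS female 3 at 0.545 CPM, lay within the CAST/EiJ range.

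Tshb, on chromosome 3 at 102775465-102782718, encodes the thyrotropin beta subunit and ran the other way. Its lowest, median and highest levels were 1.41, 2.31 and 3.15 CPM in C57BL/6J, 2.54, 3.38 and 4.09 CPM in NZO/HlLtJ and 0.475, 0.734 and 5.79 CPM in CAST/EiJ. All 36 libraries had at least 14 counts. The 5.79 CPM belongs to CAST/EiJ control female 1, which was the highest of all libraries. The other 11 CAST/EiJ libraries, at 0.475 to 1.19 CPM, were below every library of the other strains. NZO/HlLtJ held 52.4% of the 2802 Tshb counts. Tshb lies within the bounds of Tspan2 on the opposite strand, with which it shares no exon bases.

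The transcription factor genes differed least. Tbx19, on chromosome 1 at 165137855-165160773, encodes the factor of the corticotrope lineage. It had lowest, median and highest levels of 1.14, 1.80 and 2.40 CPM in C57BL/6J, 1.28, 1.87 and 2.11 CPM in NZO/HlLtJ and 1.12, 2.10 and 4.90 CPM in CAST/EiJ. Pitx1, on chromosome 13 at 55825051-55836192, encodes a factor that acts on many pituitary hormone genes. Its levels were 0.0251, 1.29 and 2.29 CPM in C57BL/6J, 0.752, 1.66 and 2.97 CPM in NZO/HlLtJ and 0.888, 1.36 and 6.34 CPM in CAST/EiJ. The strains overlapped for both genes, and the highest library of each was CAST/EiJ control female 1.

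Per kilobase of exon, which allows levels of different genes to be compared, Cga led in the median library of every strain. The length used is that of all annotated exons of a gene together, 4555 bases for Tshb, 954 for Cga and 678 for Lhb. The order of genes and the ratios between genes per kb therefore depend on the annotation, and transcripts in use may be shorter. Its median was 4.67 CPM per kb in C57BL/6J, 12.4 in NZO/HlLtJ and 28.2 in CAST/EiJ. In C57BL/6J the next medians were those of Tbx19 at 0.565, Tshb at 0.507 and Pitx1 at 0.487 CPM per kb, whose ranges over libraries overlapped. In NZO/HlLtJ they were Tshb at 0.743, Pitx1 at 0.624 and Tbx19 at 0.586 CPM per kb, again with overlapping ranges. In CAST/EiJ the next were Lhb at 3.08 and Fshb at 2.73 CPM per kb, and Tshb was last at 0.161. The medians of Prl and Gh were 0.745 and 0.432 CPM per kb in CAST/EiJ, 0.246 and 0.459 in NZO/HlLtJ and 0 in C57BL/6J. In CAST/EiJ control female 1 the order was another, with 945 CPM per kb of Prl, 930 of Gh, 253 of Cga and 43.6 of Lhb.

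That library and CAST/EiJ control male 1 stand apart from the other 34, and the strain and diet changes are given below with and without them. The 9 genes together made up 0.243% of the counts of the female and 0.0279% of those of the male. In CAST/EiJ control female 1 all 6 hormone genes and all 3 regulator genes were above each of the other 10 CAST/EiJ libraries, which held for 31.7% of the 20053 tested genes. In control male 1 this was so for 5 of 6 hormone genes, without Tshb, and for all 3 regulator genes, against 13.2% of tested genes. Relative to the median of the other 10, the female had 9.92 times the Cga, 18 times the Lhb, 5.85 times the Fshb, 8.77 times the Tshb and 19 times the Gnrhr. The male had 3.50 times the Cga, 7.31 times the Lhb, 6.66 times the Fshb, 1.25 times the Tshb and 2.94 times the Gnrhr. The female thus had the most Tshb and Gnrhr, while Fshb was at a similar multiple in both.

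Of 13 other anterior pituitary genes with a row, 8 in the female and 5 in the male were above the other 10 CAST/EiJ libraries. Over all tested genes these shares were 31.7% and 13.2%, and Avpr1b, among the 8, was not tested. Lhx4 was above in neither, at 0.0616 CPM in the female and 0.166 CPM in the male against 0.134 to 0.504 CPM. Nor was Trhr, at 10.2 and 9.24 CPM against 10.0 to 14.9 CPM. Lhx3, a transcription factor gene of pituitary development, was at 2.83 CPM in the female and 1.29 CPM in the male, against 0.121 to 0.912 CPM in the other 10. Pomc, the precursor of adrenocorticotropin that is also made by arcuate nerve cells, was at 91.6 and 65.1 CPM against 28.1 to 52.4 CPM. Neurod4 was at 1.36 CPM in the female, at 0 in the male and at most at 0.0535 CPM in the others. Avpr1b, the vasopressin receptor of corticotropes, was at 0.832, 0.0663 and at most 0.121 CPM. Nr5a1, which encodes SF-1 of gonadotropes and also of the ventromedial hypothalamus, was at 6.16 CPM in the female, below the others at 13.6 to 22.0 CPM. Most of the summed level of the 13 genes came from Scg2 and Chgb, secretory granule genes also active in nerve cells, at 1844 and 369 CPM in the female. Summed over the other 11 genes, CAST/EiJ control libraries ran from 99.5 to 154 CPM, the highest being the female, and CAST/EiJ HFHS libraries from 87.4 to 115 CPM.

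Myelin genes also set the female apart. All 8 myelin genes of oligodendrocytes were above the other 10 CAST/EiJ libraries in the female and none in the male. Their mean log2 CPM differed from that of the other 10 by 1.15 in the female and by -0.50 in the male. Mbp, the myelin basic protein gene, was at 2568 CPM in the female, at 963 CPM in the male and at 894 to 1564 CPM in the others. Of 11 genes of hypothalamic neurons, 6 in the female and 3 in the male were above the others, and of 7 genes of the pars tuberalis and its thyrotropin axis 4 and 1, beside the 31.7% and 13.2% of all tested genes. The melatonin receptor gene Mtnr1a, a marker of the pars tuberalis, was not among them, at 0.154 CPM in the female and 0.431 CPM in the male, against 0.197 to 0.825 CPM. Levels also depended on transcript length in the female: the slope of log2 CPM, relative to the mean of the CAST/EiJ libraries, per doubling of exon length was -0.165 there, -0.0123 in the male and -0.084 to 0.0474 in the other 10, over 15408 genes. The part of these cell types and of the length trend in the hormone values was not tested.

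**Figure D2:**
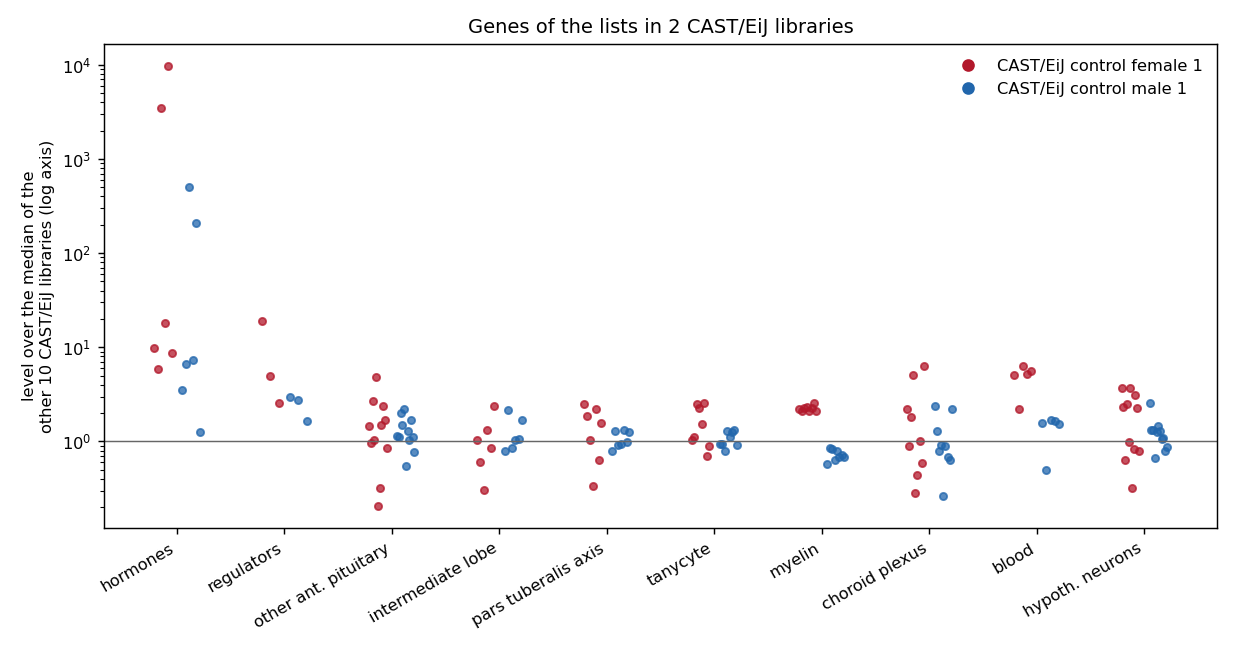
Ratio of the level in CAST/EiJ control female 1 and CAST/EiJ control male 1 to the median of the other 10 CAST/EiJ libraries (log axis), with 1 point for each gene of a list, where that median is above 3 counts. Prl and Gh reach the highest ratios in the female, and the 8 myelin genes lie above 1 in the female and below 1 in the male.

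The strain comparisons, averaged over diet and sex, separated the gonadotrope genes and Cga from Tshb. Against C57BL/6J, 5 of the 9 genes were called in CAST/EiJ, at an adjusted p under 0.05 in the edgeR quasi-likelihood test, which called 55.5% of all genes. The 4 higher ones, in a comparison in which 27.3% of all genes were higher, were Fshb, Lhb, Gnrhr and Cga. Fshb rose by 5.34 ± 0.54 (log2 change ± SE, 12 libraries against 12, adjusted p = 7.71e-10 by edgeR). Lhb rose by 4.87 ± 0.51, Gnrhr by 3.65 ± 0.56 and Cga by 3.16 ± 0.40, with adjusted p of 1.87e-09, 1.66e-06 and 7.62e-08 by edgeR. Tshb fell by 1.26 ± 0.24 on the log2 scale (adjusted p = 4.53e-05 by edgeR), in a comparison in which 28.2% of all genes were lower. Prl, Gh, Pitx1 and Tbx19 did not pass, with log2 changes of 5.26, 8.83, 0.65 and 0.32. The change of Gh depends on the prior count, since C57BL/6J controls had no Gh counts. The median log2 change was 5.07 over the 6 hormone genes, 4.02 without Prl and Gh, and 0.65 over the 3 others, beside 0.00 over all tested genes. Without CAST/EiJ control female 1 and male 1 these medians were 3.27, 3.10 and 0.15.

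Against NZO/HlLtJ the same 5 genes were called, beside 53.7% of all genes, 26.8% higher and 26.9% lower. The CAST/EiJ libraries are the same as in the comparison with C57BL/6J, so the 2 results share their samples. Fshb rose by 4.34 ± 0.48, Lhb by 4.31 ± 0.47, Gnrhr by 4.05 ± 0.56 and Cga by 1.75 ± 0.36 on the log2 scale, with adjusted p of 4.32e-09, 3.54e-09, 2.90e-07 and 0.000144 by edgeR. Tshb fell by 1.77 ± 0.24 (adjusted p = 1.86e-07 by edgeR). Between NZO/HlLtJ and C57BL/6J, 1 gene was called, beside 26.6% of all genes and 12.5% higher: Cga, higher in NZO/HlLtJ by 1.41 ± 0.40 (adjusted p = 0.00832 by edgeR). Tshb differed by 0.50 ± 0.22 with an adjusted p of 0.0932 by edgeR and did not pass.

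**Figure D3:**
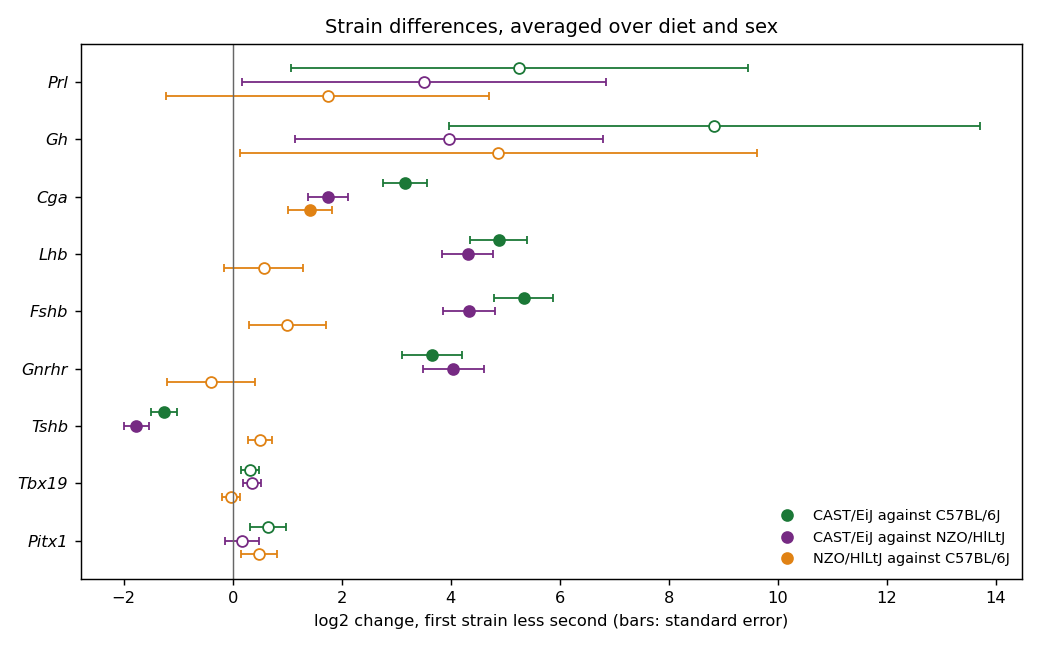
Log2 change of each of the 9 genes in the 3 strain comparisons, averaged over diet and sex. Bars are the standard error, computed from the change and its F statistic. Filled points passed the edgeR test at adjusted p under 0.05 and open circles did not. Fshb, Lhb, Gnrhr and Cga lie right of 0 and Tshb left of 0 in both comparisons with CAST/EiJ, while the bars of Prl and Gh are wide.

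Without CAST/EiJ control female 1 and male 1, all 5 genes were called in both comparisons with CAST/EiJ, and Gh was a sixth against C57BL/6J. Against C57BL/6J the log2 changes were then 4.34 for Fshb, 3.81 for Lhb, 2.72 for Gnrhr, 2.40 for Cga and -1.73 for Tshb. Against NZO/HlLtJ they were 3.34, 3.24, 3.12, 0.98 and -2.24. Gh then stood at 6.22 against C57BL/6J (adjusted p = 0.00353 by edgeR) and at 1.39 against NZO/HlLtJ (adjusted p = 0.189 by edgeR). Prl stood at 2.73 and 1.07, with adjusted p of 0.134 and 0.438 by edgeR. Pitx1 and Tbx19 stood at 0.15 and 0.08 against C57BL/6J. Of the 5 called genes, leaving out the female alone moved Lhb and Gnrhr by over 1.5 times: Lhb to 4.24 and 3.67 and Gnrhr to 2.88 and 3.28, against C57BL/6J and NZO/HlLtJ. It also moved Prl to 3.58 and 1.92 and Gh to 7.06 and 2.21, and Gh was then called against C57BL/6J (adjusted p = 0.018 by edgeR). On the HFHS diet alone, where neither library enters the comparison, Fshb, Lhb and Gnrhr were higher in CAST/EiJ than in C57BL/6J by 4.10, 3.16 and 2.28, Cga by 2.06, and Tshb was at -1.68, all called. That comparison called 8518 of all genes. Against NZO/HlLtJ on HFHS alone, Cga at 0.97 no longer passed (adjusted p = 0.125 by edgeR) and the other 4 did, beside 8646 of all genes called. Prl and Gh were not called on HFHS alone. On the control diet alone both were called higher in CAST/EiJ, with adjusted p of 5.99e-05 and 5.88e-05 against C57BL/6J and of 0.000272 and 9.07e-05 against NZO/HlLtJ by edgeR. Both rich libraries are CAST/EiJ controls, and this comparison was not run without them. With all libraries, Gh was called against both strains by DESeq2 (adjusted p of 1.06e-46 and 0.0028) and by limma (0.0202 and 0.0495), and Prl against C57BL/6J by limma (0.041). The size of the Gh change against C57BL/6J is poorly defined, since whole groups of that strain had no Gh counts. Over all settings tried its log2 change ran from 1.17 to 19.1. The difference of Cga between NZO/HlLtJ and C57BL/6J did not pass on HFHS alone, at 1.09 (adjusted p = 0.202 by edgeR).

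For the response to diet, CAST/EiJ control and HFHS libraries were compared. Gh was at 802, 3.85 and 0.252 CPM in the 3 control females and at 116, 8.12 and 0.493 CPM in the 3 control males. On HFHS it was at 0.0243, 0 and 3.29 CPM in females and at 0.206, 0.0363 and 0.0702 CPM in males. Every control library was above every HFHS library except HFHS female 3, so the groups overlapped. Gh fell by 8.17 ± 1.54 on the log2 scale with HFHS (6 libraries against 6, adjusted p = 0.0349 by edgeR). It was the only 1 of the 9 genes called, beside 0.12% of all genes called and 0.0798% lower.

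This call rested on few libraries. Without CAST/EiJ control female 1 the log2 change of Gh was -4.66 (adjusted p = 0.208 by edgeR), without control male 1 it was -6.47 (0.104), and without both it was -3.03 (0.41). It also missed the threshold without any single CAST/EiJ HFHS library, with adjusted p from 0.0599 to 0.13 by edgeR. The same happened without NZO/HlLtJ control male 1, control male 2 or HFHS male 1, with adjusted p of 0.0507, 0.0521 and 0.0508, and it was called in 25 of the 36 fits that each left out 1 library. With both rich libraries left out, Gh stood at 0.252 to 8.12 CPM in the other 4 control libraries and 0 to 3.29 CPM in the 6 on HFHS. Red-cell transcripts moved with diet in the same libraries: 4 of 5 blood genes were called lower on HFHS, and their summed level was 504 to 1766 CPM in CAST/EiJ controls and 196 to 339 CPM on HFHS. None of the 5 was at 0 in either group, and their part in the Gh result was not tested.

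Prl had a similar but not identical order and did not pass. It was at 1331, 7.92 and 1.96 CPM in the CAST/EiJ control females and at 28.7, 1.92 and 0.0986 CPM in the control males. The HFHS females had 0, 0 and 13.9 CPM, and the HFHS males 0.0685, 0 and 0.175 CPM. Control male 3 was thus below HFHS male 3 as well as HFHS female 3. The log2 change was -6.76 ± 1.47 (adjusted p = 0.0539 by edgeR). All 9 genes had a negative log2 change with HFHS in CAST/EiJ, and 7 had an unadjusted p under 0.05 by edgeR. The share of all genes at that threshold is not given here. The 9 genes share both rich control libraries, so their changes are not separate results. Lhb was at -1.78 ± 0.51 (adjusted p = 0.105 by edgeR) and Cga at -1.32 ± 0.50 (adjusted p = 0.177 by edgeR). Some medians ran the other way: Lhb had a median of 1.98 CPM in control and 2.13 CPM in HFHS libraries, and Fshb 3.44 and 4.62 CPM. Without both rich libraries the log2 change was 0.33 for Lhb, 0.21 for Cga and -1.80 for Prl.

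Leaving out CAST/EiJ control female 2 gave calls for 6 of the 9 genes, beside 2681 of all genes. With all libraries, 24 of all genes were called. Leaving out control female 3 gave calls for 3 of the 9, with the number of all genes called not given here. Gh was among the called genes both times. Prl then stood at -7.04 in either case, with adjusted p of 0.00119 and 0.0117 by edgeR. It was also called without control male 3 or HFHS female 3, with adjusted p of 0.0427 and 0.0286. Lhb was called without control female 2 at -2.01 (0.0067) and without control female 3 at -2.04 (0.038).

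In C57BL/6J and NZO/HlLtJ no gene of the 9 was called for diet by edgeR, beside 0% and 0.145% of all genes, and none had an unadjusted p under 0.05. DESeq2 called 1 in C57BL/6J, Gh, and 0 in NZO/HlLtJ, and limma on the deposited log2 values called 0 in each. Gh had no counts in any of the 6 C57BL/6J control libraries and ran from 0 to 2.44 CPM on HFHS. Prl ran from 0 to 0.145 CPM in control and 0 to 7.06 CPM in HFHS libraries of that strain. In NZO/HlLtJ, Prl ran from 0 to 4.77 CPM in control and 0.0578 to 0.791 CPM in HFHS libraries, and Gh from 0 to 0.584 and 0 to 1.16 CPM. The direct tests of a difference between strains in the response to diet or in the difference between sexes, 54 in number, called none of the 9 genes. Their smallest adjusted p was 0.148 by edgeR. The tests of Gh that involve C57BL/6J decide nothing, since whole groups of that strain had no Gh counts. For diet in CAST/EiJ less C57BL/6J, Gh had a log2 difference of -11.97 with an unadjusted p of 0.99997 by edgeR.

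Females and males were compared over both diets in each strain. None of the 9 genes was called by edgeR, beside 0.194% of all genes in C57BL/6J, 0.0698% in NZO/HlLtJ and 0.185% in CAST/EiJ. DESeq2 called 1 gene in C57BL/6J, Gh, and 0 in the other strains, and limma called 0 throughout. That Gh call rests on few counts. No C57BL/6J female had a Gh count, and the males had at most 2 counts apart from HFHS male 3, with 60. Prl in CAST/EiJ had a median of 4.94 CPM in the 6 females and 0.137 CPM in the 6 males, with overlapping ranges. The log2 change was 5.62 ± 1.53 (adjusted p = 0.102 by edgeR). It was 2.37 without control female 1 (adjusted p = 0.512 by edgeR). Without control female 2 it was 5.90, and Prl was called (adjusted p = 0.00534 by edgeR) beside 3088 of all genes.

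The proportions of the hormones were also set against sex, as ratios chosen after the values were seen and given with no test. Among libraries with at least 20 counts of Prl and Gh together, Gh per kb was above Prl per kb in 3 of 3 CAST/EiJ males, at 6.58 to 8.17 times. It was below in 4 of 4 CAST/EiJ females, at 0.21 to 0.984 times. In NZO/HlLtJ, Gh was above Prl in 3 of 4 males and 1 of 4 females, so the sexes overlapped. The ratio of Fshb to Lhb per kb was 0.289 to 0.721 in the 6 CAST/EiJ females and 0.838 to 1.57 in the 6 males, without overlap. In NZO/HlLtJ, where few counts support it, that ratio was 0.0748 to 1.03 in 4 females and 0.575 to 1.79 in 3 males.

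The ratio of Cga to Tshb set CAST/EiJ apart from the other strains, whose ranges overlapped. Per kb it was 56.6 to 492 in the 12 CAST/EiJ libraries, 9.80 to 21.6 in NZO/HlLtJ and 0 to 29.8 in C57BL/6J. The ratio of Cga to Lhb per kb was 5.07 to 11.6 in CAST/EiJ, 7.46 to 51.9 in 10 C57BL/6J libraries and 18.4 to 163 in NZO/HlLtJ. Cga per kb thus exceeded Tshb in every library except 1, C57BL/6J control male 3, and Lhb in every library counted, among them C57BL/6J control male 1, which had 111 Cga counts and 0 of Lhb.

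How the genes relate was measured over the 36 pairs of the 9 genes on log2 CPM. For Prl and Gh, Spearman's rho over 36 libraries was 0.753 and Pearson's r was 0.890. Both had a permutation p of 1e-05, the smallest that 100000 permutations can give, and rho an adjusted p of 5.14e-05. The permutations ignored strain and group, so these p-values also take in differences between groups that both genes share. Without the 2 libraries farthest from the median of Prl, r was 0.794. Within CAST/EiJ, rho was 0.901 (permutation p = 0.00013) and r was 0.938, or 0.854 without the 2 farthest libraries. Within NZO/HlLtJ, rho was 0.515 (permutation p = 0.087), and within C57BL/6J it was 0.0241 (permutation p = 0.946). In C57BL/6J, r was 0.752 but -0.267 without 2 libraries, so that it rests on them.

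CAST/EiJ lay wholly or mostly above the other strains for Cga, Lhb, Fshb and Gnrhr, so these pairs were read within strains. In CAST/EiJ 33 of 36 pairs had a positive rho, and 4 passed by rho at an adjusted p under 0.05: Prl with Gh, Cga with Lhb, Cga with Gnrhr and Lhb with Gnrhr. Cga and Lhb had a rho of 0.881 and r of 0.967, and r of 0.776 without the 2 farthest libraries (adjusted permutation p of rho 0.0047). Lhb and Gnrhr had a rho of 0.881 and r of 0.938, and r of 0.691 without 2. Lhb and Fshb, both gonadotrope genes, had a rho of 0.580 (adjusted permutation p = 0.153) and an r of 0.849 that was 0.298 without 2 libraries. Cga and Tshb, the subunits of thyrotropin, had a rho of -0.021 in CAST/EiJ (adjusted permutation p = 0.956). In NZO/HlLtJ and C57BL/6J their rho was 0.671 and 0.503, and no pair passed by rho in either strain. By r, Cga and Pitx1 passed in C57BL/6J, at 0.967 (adjusted permutation p = 0.00252) or 0.745 without the 2 farthest libraries, with a rho of 0.797 (adjusted permutation p = 0.0502).

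After the means of the 12 groups were taken out, 23 of the 36 pairs passed by rho and 35 had a positive rho, with a median of 0.420. The strongest was Cga with Pitx1, at a rho of 0.878 and r of 0.934, or 0.881 without the 2 farthest libraries. Prl with Gh followed at a rho of 0.809 and r of 0.886. Cga with Tshb had a rho of 0.443 (adjusted permutation p = 0.016) in these deviations. Pitx1 and Cga were also low together in C57BL/6J control male 3. Deviations from group means are not independent within a group of 3, and depth is shared by all genes of a library.

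**Figure D4:**
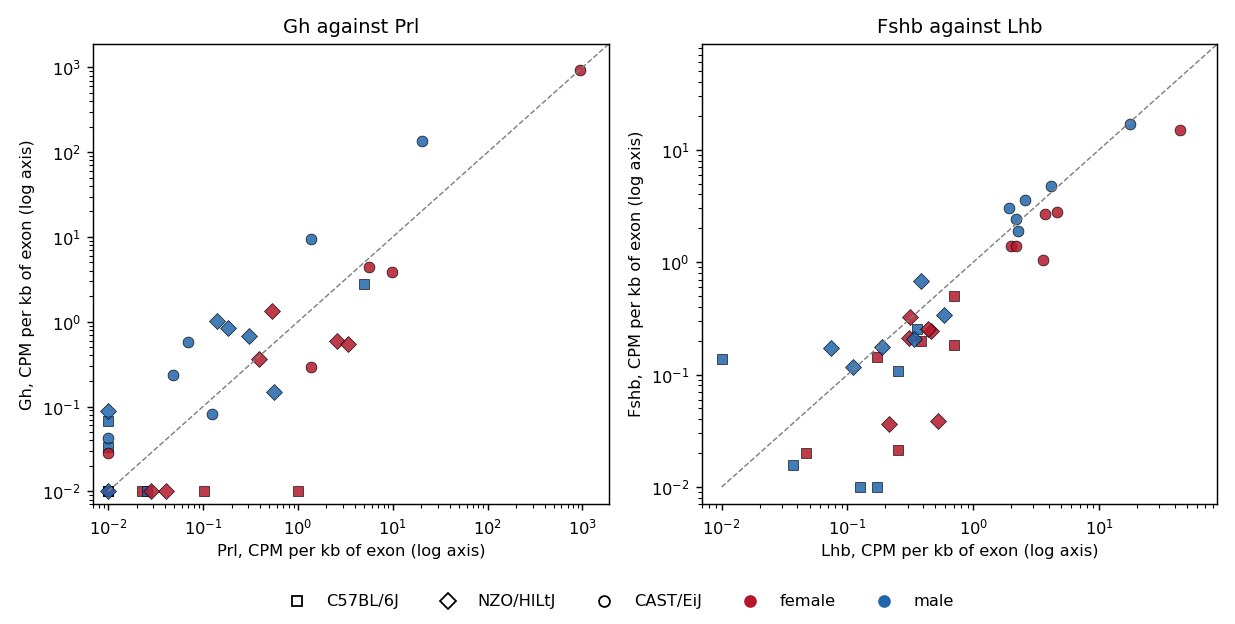
Levels of Gh against Prl and of Fshb against Lhb in CPM per kb of exon (log axes), 1 point per library, by strain and sex, with values of 0 drawn at 0.01. The dashed line marks equal levels. The CAST/EiJ libraries with most Prl also hold most Gh, and Fshb is above Lhb in 4 of the 6 CAST/EiJ males and in 0 of the 6 females.

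Receptor and response genes of growth hormone and prolactin were read in the libraries rich in these hormones. Of 9 such genes, 0 in CAST/EiJ control female 1 and 1 in control male 1, Socs3, were above the other 10 CAST/EiJ libraries. The prolactin receptor gene Prlr was at 32.4 CPM in the female and 53.6 CPM in the male, against 32.2 to 66.9 CPM, and Cish, a target of STAT5 signalling, was at 6.99 and 7.89 CPM against 5.12 to 8.09 CPM. Igf1, which growth hormone induces in liver, was at 6.25 and 5.67 CPM, below the other 10 at 7.38 to 15.4 CPM. Among 11 releasing and inhibiting factor genes, 4 in the female and 3 in the male were above the others, beside 31.7% and 13.2% of all tested genes. Ghrh, which encodes the releasing factor of growth hormone, was at 12.3 and 10.0 CPM against 2.69 to 6.31 CPM. Th, the enzyme of dopamine neurons that restrain prolactin, was at 30.2 and 23.6 CPM, within 20.3 to 35.3 CPM.

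For diet in CAST/EiJ, none of the 12 tested genes of the other anterior pituitary list and none of the 11 releasing factor genes was called. Their median log2 changes were -0.22 and -0.11, beside -0.01 over all tested genes. Between strains, 3 of the 12 were called higher and 2 lower in CAST/EiJ against C57BL/6J, and 2 higher and 4 lower against NZO/HlLtJ. Of the 7 pars tuberalis genes, 2 were higher and 0 lower against C57BL/6J, and 3 higher and 1 lower against NZO/HlLtJ. Over all genes 27.3% were higher and 28.2% lower in the comparison with C57BL/6J, and 26.8% and 26.9% in that with NZO/HlLtJ.

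The genes whose levels were most like those of both Prl and Gh, by the smaller of their 2 Spearman correlations over 36 libraries, were Knstrn at 0.684, Pacsin3 at 0.670, Il10rb at 0.643, Ramp2 at 0.637 and Fetub at 0.622. Mcur1, Wnt5a, Fes, Nme3 and Ctsc followed, at 0.607 to 0.588. None of the 10 belongs to a list of pituitary or cell type genes used here, and 9 of them were again among the top 10 without CAST/EiJ control female 1. Each was below the 0.753 between Prl and Gh. The genes most like both Tshb and Cga were Ganc, Coq9, Ntsr2, Syf2 and Padi2, at 0.483 to 0.448. These correlations describe libraries that share depth and strain and carry no test.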

How the data were processed

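RNA of hypothalamus was sequenced as polyA libraries (KAPA mRNA HyperPrep) with paired reads of 100 bases, per the labels' protocols. The authors deposited 1 table of expected counts per gene and 1 table of log2 values after a variance-stabilizing transformation (VST), from DESeq2 with build GRCm38 per the submitters' processing notes. The sources used here do not name the aligner, the counter or any use of strand. Of the expected counts, 21.4% were not whole at a tolerance of 1e-06. They were rounded, which moved no library total by more than 0.00019%. Every gene in the table is above 0 in at least 19 of the 36 libraries.

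From the counts, filterByExpr kept 20053 of 24265 genes, and TMM factors, CPM and log2 CPM with a prior count of 2 were computed. An edgeR quasi-likelihood model with 12 group means and 24 residual degrees of freedom gave 9 contrasts of diet, strain or sex, each averaged over the other factors. The Benjamini-Hochberg adjustment ran over the 20053 genes, and an adjusted p under 0.05 was called. For a count of 0 the limit is that of 3 counts. Correlations used 100000 permutations, and p-values were adjusted over the 36 pairs. Levels per kilobase used GENCODE M21 exon lengths, matched for 24108 genes. RefSeq windows of GRCm38.p6 matched 8 of the 10 looked-for genes. The model was tested on simulated counts with planted changes of known size, the same spread for all genes and low-count genes left out. No simulated library stood far from the others and no group lacked counts. The simulation therefore does not cover the pattern of Prl and Gh.

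The genes and the lists were chosen with earlier results of these data known. The lists hold other anterior pituitary genes, the intermediate lobe, the pars tuberalis, releasing factors, hormone receptors and response, tanycytes, choroid plexus, blood, hypothalamic neurons and myelin. Named are all genes looked for with a row, up to 4 of the most abundant genes of each list and those called, the 10 genes most like Prl and Gh and the 5 most like Tshb and Cga. List genes described in the libraries rich in hormones were chosen after their values were seen. Alternatives were median-ratio size factors, no filter, at least 1 CPM in 18 libraries, robust empirical Bayes, DESeq2, limma on the VST values, a fit on just the libraries of a contrast, and leaving out every library in turn. Leaving out both libraries with most Gh, and strain contrasts within 1 diet, were added after seeing the data, as were the tests of differences between strains. Computation used DESeq2 1.42.0, edgeR 4.0.16 and limma 3.58.1 in R 4.3.3, with numpy 2.4.6 and pandas 2.3.3.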

Additional observations from a re-analysis of the deposited data

Results flagged for a closer look

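For each of the 9 genes, groups of 6 libraries that share strain and diet, or strain and sex, were searched for a library far from the other 5. A library is given here when its gap to the nearest other, on log2 levels, exceeded the share of the group's range that Dixon's test sets at the 95% level. Of 108 groups, 22 held such a library, where chance alone gives about 1 in 20, and groups that share libraries are not independent. CAST/EiJ control female 1 accounts for 8 of the 22.

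Among CAST/EiJ females that library had 241.7 CPM of Cga (others 18.2 to 39.5), 29.54 of Lhb (1.34 to 3.15), 23.81 of Fshb (1.66 to 4.44) and 10.5 of Gnrhr (0.364 to 1.02). It also had 6.345 CPM of Pitx1 (1.03 to 1.89) and 4.897 of Tbx19 (1.54 to 2.12). For Tshb its 5.79 CPM stood apart both from the other females (0.475 to 0.812) and from the other CAST/EiJ control libraries (0.499 to 0.888). Among CAST/EiJ males, control male 1 had 85.29 CPM of Cga (14.1 to 27.1) and 11.96 of Lhb (1.30 to 2.83).

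Prl and Gh stood apart in libraries of other groups. C57BL/6J HFHS male 3 had 7.065 CPM of Prl against 0 to 0.0365 in the other males of its strain. Its 2.436 CPM of Gh stood apart both from the other HFHS libraries and from the other males, at 0 to 0.0584. CAST/EiJ HFHS female 3 had 13.9 CPM of Prl (0 to 0.176 in the other HFHS libraries) and 3.294 of Gh (0 to 0.206).

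The remaining libraries were low. C57BL/6J control male 3 had 0 CPM of Cga, against 2.33 to 6.19 in the other control libraries and 1.23 to 5.78 in the other males, and 0.02509 CPM of Pitx1 against 0.574 to 1.85. NZO/HlLtJ control male 1 had 5.792 CPM of Cga against 10.6 to 13.7. C57BL/6J HFHS female 2 had 1.412 CPM of Tshb against 2.25 to 2.81. For Tbx19, C57BL/6J HFHS male 3 had 1.137 CPM against 1.65 to 1.90 in other males, and NZO/HlLtJ control male 2 had 1.406 CPM against 1.84 to 2.11.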

How the results depend on the processing

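Of the 9 genes, the number called for diet in CAST/EiJ, 1 as reported, was 0 with robust empirical Bayes, with limma on VST values, with only the libraries compared, and without both libraries richest in Gh. It was also 0 with at least 1 CPM in 18 libraries, a filter that left 4 of the 9 genes to be tested, without Gh. With each library left out it was 0 to 6, with 6 without CAST/EiJ control female 2. DESeq2 called 1 gene, Gh, where edgeR called 0, for diet and for sex in C57BL/6J. Between NZO/HlLtJ and C57BL/6J, 1 as reported, the number was 2 with DESeq2, 2 with limma, 3 with only the libraries compared, 3 without both rich libraries and 0 on HFHS alone. It was 1 to 2 with a library left out: Tshb joined without CAST/EiJ control female 1 or female 2. For CAST/EiJ, 5 as reported, the strict filter gave 2 against each strain, and control groups alone gave 8 against C57BL/6J. DESeq2 gave 6 against each, and limma 7 against C57BL/6J and 6 against NZO/HlLtJ. With a library left out it was 5 to 6. Fshb, Lhb, Gnrhr and Tshb were called in both CAST/EiJ comparisons in every setting that tested them. For sex in CAST/EiJ it was 0 to 1, the 1 being Prl without control female 2. For the relation of Prl and Gh, rho was 0.024 within C57BL/6J and 0.515 within NZO/HlLtJ. The sign changed for Prl between CAST/EiJ and C57BL/6J on HFHS alone (-0.5543), for Gh between CAST/EiJ and NZO/HlLtJ on HFHS alone (-0.4981), and for Lhb and Cga with diet in CAST/EiJ without both rich libraries (0.3262 and 0.2082). Apart from the strict filter, the cause was not tested. In all, 395 recomputed counts, levels and correlations kept their call or stayed within 1.5 times, and 31 of the counts moved further and 2 correlations no longer passed. Of the single-gene changes 984 kept direction and call, 29 gained a call, 17 lost it and 4 changed sign. The number of all genes called for diet in CAST/EiJ, 24 as reported, ran from 6 with only the libraries compared to 391 with DESeq2, and to 2681 without CAST/EiJ control female 2. For diet in NZO/HlLtJ it was 29 as reported and 7 to 173. For diet in C57BL/6J it was 0 and at most 3. For sex it was 39 as reported and 19 to 81 in C57BL/6J, 14 and 12 to 22 in NZO/HlLtJ, and 37 and 10 to 3088 in CAST/EiJ. Between NZO/HlLtJ and C57BL/6J it was 5331 as reported and 3160 on HFHS alone. Between CAST/EiJ and C57BL/6J it was 11128 as reported and 8518 on HFHS alone, and between CAST/EiJ and NZO/HlLtJ 10770 and 8646. Over the settings other than single diets and single left-out libraries, these 2 ran from 8783 to 11618 and from 8450 to 11329. The number on the control diet alone is not given here. Depth limits Prl, Gh and Gnrhr most, which were at 3 counts or fewer in many libraries. No paired analysis was possible because the labels give no replicate numbers that groups share.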

Other observations

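Lists of other cells and tissues near the hypothalamus were read in the same strain comparison as the hormones. All 8 myelin genes were called lower in CAST/EiJ than in C57BL/6J, beside 28.2% of all genes, with a median log2 change of -0.73. Mbp, the myelin basic protein gene, averaged 1339 CPM in CAST/EiJ and 1956 CPM in C57BL/6J, a log2 change of -0.58 ± 0.09 (adjusted p = 1.27e-06 by edgeR). Mal, a myelin membrane protein gene, fell by 1.16 ± 0.10 on the log2 scale (adjusted p = 2.70e-11 by edgeR). Of 11 genes of hypothalamic neurons, 6 were called higher and 0 lower, beside 27.3% of all genes higher. They include Agrp, which encodes an appetite-raising peptide of the arcuate nucleus, at 6.91 against 2.82 CPM, a log2 change of 1.24 ± 0.20 (adjusted p = 3.64e-06 by edgeR). Npy, made by the same neurons, averaged 27.4 against 15.8 CPM, a log2 change of 0.74 ± 0.16 (adjusted p = 0.000178 by edgeR).

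Of 9 choroid plexus genes 1 was higher and 4 were lower, and Ttr, the transthyretin gene that the choroid plexus makes at a high level, averaged 1.02 CPM in CAST/EiJ and 2.39 CPM in C57BL/6J without passing (adjusted p = 0.264 by edgeR). Of 6 genes of the intermediate lobe of the pituitary 2 were higher and 1 was lower, and of 8 tanycyte and median eminence genes 2 and 1, where 27.3% of all genes were higher and 28.2% lower. Of 9 receptor and response genes of growth hormone and prolactin 3 were higher and 4 lower, of 11 releasing and inhibiting factor genes 1 and 0, and of 5 blood genes 0 and 1. In CAST/EiJ control female 1, 2 intermediate lobe, 4 tanycyte, 3 choroid plexus and 1 blood gene were above the other 10 CAST/EiJ libraries, and in control male 1 the numbers were 2, 1, 2 and 0, beside 31.7% and 13.2% of all tested genes.

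For diet in CAST/EiJ, the blood genes called lower on HFHS include Hbb-bs, a beta globin gene, which averaged 417 CPM in control and 97.4 CPM in HFHS libraries (log2 change -1.996 ± 0.23, adjusted p = 1.08e-05 by edgeR). Alas2, the heme synthesis enzyme of red cells, averaged 16.3 and 3.65 CPM (log2 change -1.98 ± 0.26, adjusted p = 0.000108 by edgeR). Hbb-bs and Hbb-bt are near-identical copies, so the split of counts between them is uncertain.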
